A study of Mus musculus with 19 samples.

Results

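The laminins, the collagens and their partners in the basement membrane were followed in the striatum of mice that carry mutant huntingtin (HTT) of different lengths. The set was drawn by symbol and by level: every gene named as a laminin chain or as a collagen chain, together with Nid1, Nid2, Hspg2, Agrn, Fn1 and Sparc, was taken if it had 10 or more counts in at least 4 of the 19 mice. This gave 60 of 61 candidate genes (Col10a1, a cartilage collagen, fell short), out of 54232 gene identifiers counted, and all 60 were among the 18521 genes tested. They comprised 23 basement membrane genes, of which 11 are laminin chains, 11 fibrillar collagens, 24 other collagens, and the pair Fn1 and Sparc.

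RNA was extracted from dissected striatum of 6-month-old mice on the C57/BL/6 background and sequenced. There were 7 wild type (WT) mice, 4 KI-FL mice, 4 KI-571 mice and 4 KI-96 mice. KI-FL mice are heterozygous HD140Q knock-in mice that make full-length mutant HTT from one allele and keep a WT Htt allele. KI-571 and KI-96 mice are heterozygous too and carry the same knock-in allele cut short by CRISPR/Cas9. The shortened allele encodes an N-terminal fragment of HTT with the expanded polyglutamine tract. The number in the name counts the first amino acids of HTT that the fragment keeps. The study describes the expanded repeat as additional to them. The truncations were introduced by editing embryos, and KI-571 goes back to a single founder while KI-96 had several. The labels do not tie the mice sequenced to founders. The question was whether the 3 mutant forms differ from WT, and from each other, in these matrix genes, and whether basement membrane and fibrillar genes behave alike. All comparisons with WT share the same 7 WT mice.

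A basement membrane is the thin sheet of matrix on which endothelial and epithelial cells rest, and in the brain it wraps the blood vessels, lies under the pia and is laid down jointly by endothelial cells, pericytes and astrocytes. It has a laminin network, in which each laminin is a trimer of an alpha, a beta and a gamma chain, and a collagen IV network, and these are bridged by nidogens and by the heparan sulphate proteoglycans perlecan (Hspg2) and agrin (Agrn). Fibrillar collagens instead build the rope-like fibres of connective tissue, which in the brain are found mainly in the meninges and around larger vessels. Because the tissue was measured in bulk, fewer cells of a type and less RNA per cell cannot be told apart.

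Between 12669809 and 26388542 counts fell on genes in each mouse, with a median of 18202412, and the deepest WT libraries were those of replicates 5 to 7. Markers of striatal projection neurons were present in every mouse. Htt itself, the targeted gene, was measured at 168 to 195 CPM (a gene's counts scaled to the size of the mouse's library) in the WT mice, 143 to 240 in KI-96, 104 to 141 in KI-571 and 137 to 179 in KI-FL. Its log2 fold change against WT was -0.53 in KI-571 (SE 0.11, adjusted p = 0.0959) and 0.059 and -0.18 in KI-96 and KI-FL, so that no genotype passed the test, the KI-571 mice lying wholly below WT but overlapping KI-FL. Counts on the whole gene do not report the length of the mutant product. Several mice stood apart. KI-FL replicate 4 had 16384 genes detected against 23177 to 28700 in the other 18 mice, and 15 of the 60 matrix genes had no count in it. KI-571 replicates 2 and 4 and KI-FL replicate 1 held 5093, 5341 and 3026 CPM of 6 choroid plexus markers, against 36.4 to 410 CPM in the other 16 mice. WT replicate 3 and KI-571 replicate 2 held 1019 and 410 CPM of 6 cortical neuron markers, against 11.5 to 116 CPM in the other 17. Xist was at least 886 CPM in 6 mice, which were every KI-96 mouse, replicate 1 of WT and replicate 2 of KI-FL, and at most 5.05 CPM in the other 13, so that sex, which the labels do not give, is unevenly spread over the genotypes.

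Of the 60 genes, 43 were matched to at least 1 promoter window of RefSeq, 250 bases before to 50 bases after a gene's start on GRCm38.p6. Stretches of these windows that lie outside annotated exons are shown for the genes on which the comparisons turn: the laminin and the fibrillar collagen that passed the test, and 2 of the collagens that followed the choroid plexus markers. Capitals mark a GC box (GGGCGG) or a CCAAT box (CCAAT), on either strand, neighbouring boxes being allowed to overlap.
Lamb1, chr12:31265043-31265233, plus strand: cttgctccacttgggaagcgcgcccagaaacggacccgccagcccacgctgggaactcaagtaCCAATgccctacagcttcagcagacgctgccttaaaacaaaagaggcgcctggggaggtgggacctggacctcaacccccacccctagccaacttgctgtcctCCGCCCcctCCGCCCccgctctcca
Col24a1, chr3:145292222-145292471, plus strand: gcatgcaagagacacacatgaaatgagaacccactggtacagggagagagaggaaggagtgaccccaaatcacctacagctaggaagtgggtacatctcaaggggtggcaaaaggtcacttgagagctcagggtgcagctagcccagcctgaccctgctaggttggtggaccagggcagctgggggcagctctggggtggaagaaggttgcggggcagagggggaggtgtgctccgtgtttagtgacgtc
Col4a4, chr1:82586850-82586920, minus strand, the whole gap between Col4a4 and Col4a3: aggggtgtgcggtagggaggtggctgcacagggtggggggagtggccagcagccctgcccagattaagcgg
Col8a1, chr16:57754738-57754987, minus strand: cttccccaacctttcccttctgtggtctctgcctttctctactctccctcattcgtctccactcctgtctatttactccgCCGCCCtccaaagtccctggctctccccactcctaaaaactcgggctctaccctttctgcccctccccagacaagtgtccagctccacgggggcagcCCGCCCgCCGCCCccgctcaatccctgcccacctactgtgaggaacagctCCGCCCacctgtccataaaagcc

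The Lamb1 stretch held 2 GC boxes and 1 CCAAT box, that of Col8a1 held 4 GC boxes, and those of Col24a1 and of the Col4a4 gap held neither motif. A GC box was found in 30 of the 48 windows of these genes (62.5%) and in 35.7% of all 32851 windows, and their median GC content was 60% against 52.7%. By class, 66.7% of basement membrane, 75% of fibrillar and 57.1% of other collagen windows held a GC box. CCAAT was found in 31.25% of the windows against 37.4% of all, and the TATA box (TATAAA) in 8.33% against 13.6%.

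The type IV collagen genes lie head to head in pairs. Col4a1 (ENSMUSG00000031502.11, chr8:11198423-11312826, minus strand) and Col4a2 (chr8:11312805-11449287, plus strand) overlap by 22 bases at their starts, Col4a4 and Col4a3 start 71 bases apart on chromosome 1, and Col4a6 and Col4a5 start 1308 bases apart on chromosome X. Gene positions are those of GENCODE M21 on GRCm38. Of the 60 genes, 18 share exon bases with another gene and none shares over 10% of them, so that counts lost or split between neighbours would touch few of these values. Nid2 shares the largest part (8.45%), and Lamb1 and Col24a1 share none.

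Levels per length were compared as RPKM, which is CPM per kilobase of exon. Sparc, which encodes a collagen-binding glycoprotein made by astrocytes and endothelial cells, was the highest of the 60 genes with a mean of 86.5 RPKM over the 19 mice. It was followed by Col6a1 (27.2), a chain of the microfibrillar collagen VI, by Agrn (23.0), and at some distance by Col11a2 (7.83) and Col9a3 (6.96). Among the laminin chains the order of mean RPKM was Lamc1 (6.26), Lamb2 (4.74), Lamb1 (4.14), Lama5 (1.36) and Lama2 (1.06), and Col4a2 (5.78) stood above Col4a1 (3.16). The interstitial fibrillar collagens were low, at 0.62 RPKM for Col1a1, 0.51 for Col1a2 and 0.114 for Col3a1. In all, 21 genes exceeded 1 RPKM (8 of the 23 basement membrane genes, 2 of the 11 fibrillar, 9 of the 24 other collagens, and both Fn1 and Sparc) and 9 lay below 0.2.

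The steadiest gene was Agrn, whose CPM had a coefficient of variation of 8.64% over the 19 mice. Lamc1 (12.5%) and Lama2 (14.7%) were the steadiest laminins, and Lamb1 was at 20.2%. Col8a1 (183%), Col4a3 (151%), Col4a4 (120%), Col8a2 (108%) and Col5a1 (108%) varied most, and all but Col5a1 were highest in KI-571 replicate 4, one of the mice with high choroid plexus markers.

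**Figure D1:**
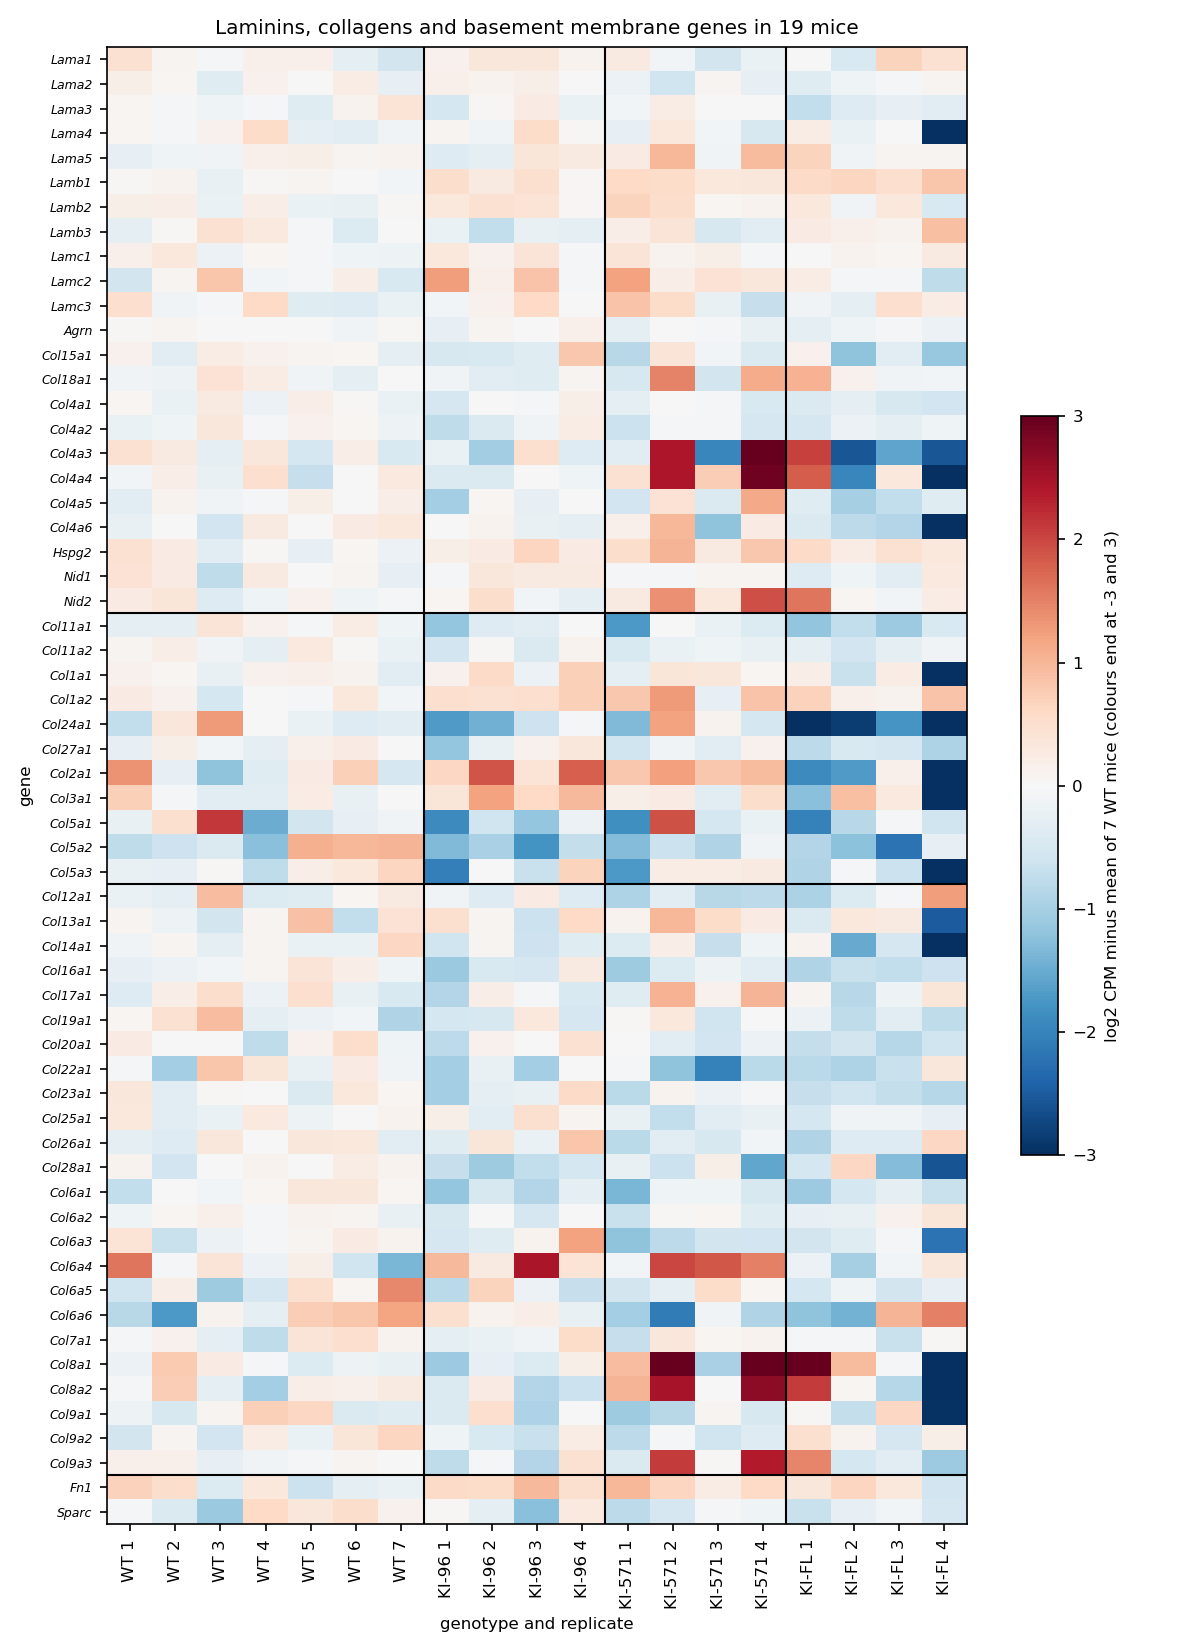
Heat map of the 60 genes (rows, grouped from top to bottom as basement membrane, fibrillar, other collagens, and Fn1 and Sparc) in the 19 mice (columns, by genotype and replicate), coloured by log2 CPM minus the mean of the 7 WT mice, with colours ending at -3 and 3. The Lamb1 row is above the WT mean in all 12 KI mice, KI-FL replicate 4 has dark blue cells where its count was 0, and KI-571 replicates 2 and 4 and KI-FL replicate 1 share a band of red cells in Col4a3, Col4a4, Col8a1, Col8a2 and Col9a3.

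Lamb1, the beta1 chain of the laminins of vessel walls, was the 1 matrix gene that edgeR's test called in the KI mice as a group, where it was higher than in WT. It lies at chr12:31265234-31329644 on the plus strand (ENSMUSG00000002900.16). In the WT mice its level was 27.9 CPM at the lowest, 33.7 at the median and 35.4 at the highest. The KI-96 mice had 47.2, 39.8, 45.7 and 33.4 CPM, the KI-571 mice 49.4, 48.0, 41.1 and 41.2, and the KI-FL mice 48.7, 51.1, 46.3 and 58.6. Every KI-571 and KI-FL mouse lay above every WT mouse, and KI-96 replicate 4 lay inside the WT range. Against WT, the log2 fold change was 0.64 in KI-FL (SE 0.10, 1.56-fold, adjusted p = 0.0279 by edgeR's quasi-likelihood test), which passed, and 0.45 in KI-571 (SE 0.10, adjusted p = 0.1005) and 0.34 in KI-96 (SE 0.10, adjusted p = 0.552), which did not. Over the 3 KI genotypes together it was 0.48 (SE 0.079, adjusted p = 0.0169), and the test of any difference among the 4 genotypes also passed (adjusted p = 0.0345). No difference between KI genotypes passed for Lamb1: KI-96 was 0.30 below KI-FL (SE 0.12, adjusted p = 0.477).

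The direction of the Lamb1 change in KI-FL held in all 30 alternative fits, with log2 fold changes from 0.57 to 0.67, but the call did not, with adjusted p from 9.83e-05 with DESeq2 to 0.399. Its adjusted p was 0.0515, 0.0519, 0.0829, 0.0639 and 0.0642 without WT replicate 1, 4, 5, 6 or 7, 0.0807 and 0.0599 without KI-FL replicate 2 or 4, 0.399 and 0.0595 against WT replicates 1 to 4 or 5 to 7 alone, 0.0801 with Xist as a covariate and 0.0523 without the mice high in choroid plexus markers. The study left out a WT sample as a possible outlier, and whether it is among these 7 is not stated in the labels. The call over the KI genotypes together was lost without WT replicate 5, 6 or 7 (adjusted p = 0.0589, 0.0784 and 0.0822), without the mice high in cortical neuron markers (0.0648), against WT replicates 1 to 4 (0.628) or 5 to 7 (0.109), and with Xist (0.347). The call of any difference was lost without WT replicate 1, 3, 4, 5, 6 or 7, KI-571 replicate 2, or KI-FL replicate 2, 3 or 4, with adjusted p from 0.0503 to 0.0800, and in the fits without the mice high in choroid plexus (0.173) or cortical neuron markers (0.106), against WT replicates 1 to 4 (0.336) or 5 to 7 (0.191), and with Xist (0.0910).

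None of the other laminin chains passed the test against WT. Lamc1, the gamma1 chain, was measured at 42.5 to 59.4 CPM in WT and 48.7 to 58.2 in KI-FL (log2 fold change 0.11, SE 0.11). Lama2, the alpha2 chain, was at 13.9 to 20.6 CPM in WT and 13.7 to 18.8 in KI-FL (-0.11, SE 0.14). Lama4, the endothelial alpha4 chain, had 3.62 ± 0.82 CPM in WT (SD, n = 7) and 2.70 ± 1.86 in KI-FL (SD, n = 4), where replicate 4 had no count. Lamb2, the beta2 chain, had mean levels of 25.9 CPM in WT, 32.1 in KI-96, 33.2 in KI-571 and 26.5 in KI-FL, and its log2 fold change in KI-571 was 0.36 (SE 0.15, adjusted p = 0.537). Lama1, which marks the basement membrane under the pia, differed from WT by 0.21 in KI-96, -0.14 in KI-571 and 0.22 in KI-FL. Of the 11 laminin chains, 9, 7 and 7 had log2 fold changes above 0 in these genotypes, beside 47.2%, 48.3% and 46.1% of all genes, with medians of 0.16, 0.15 and 0.087, beside medians over all genes tested of -0.015, -0.0089 and -0.028.

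**Figure D2:**
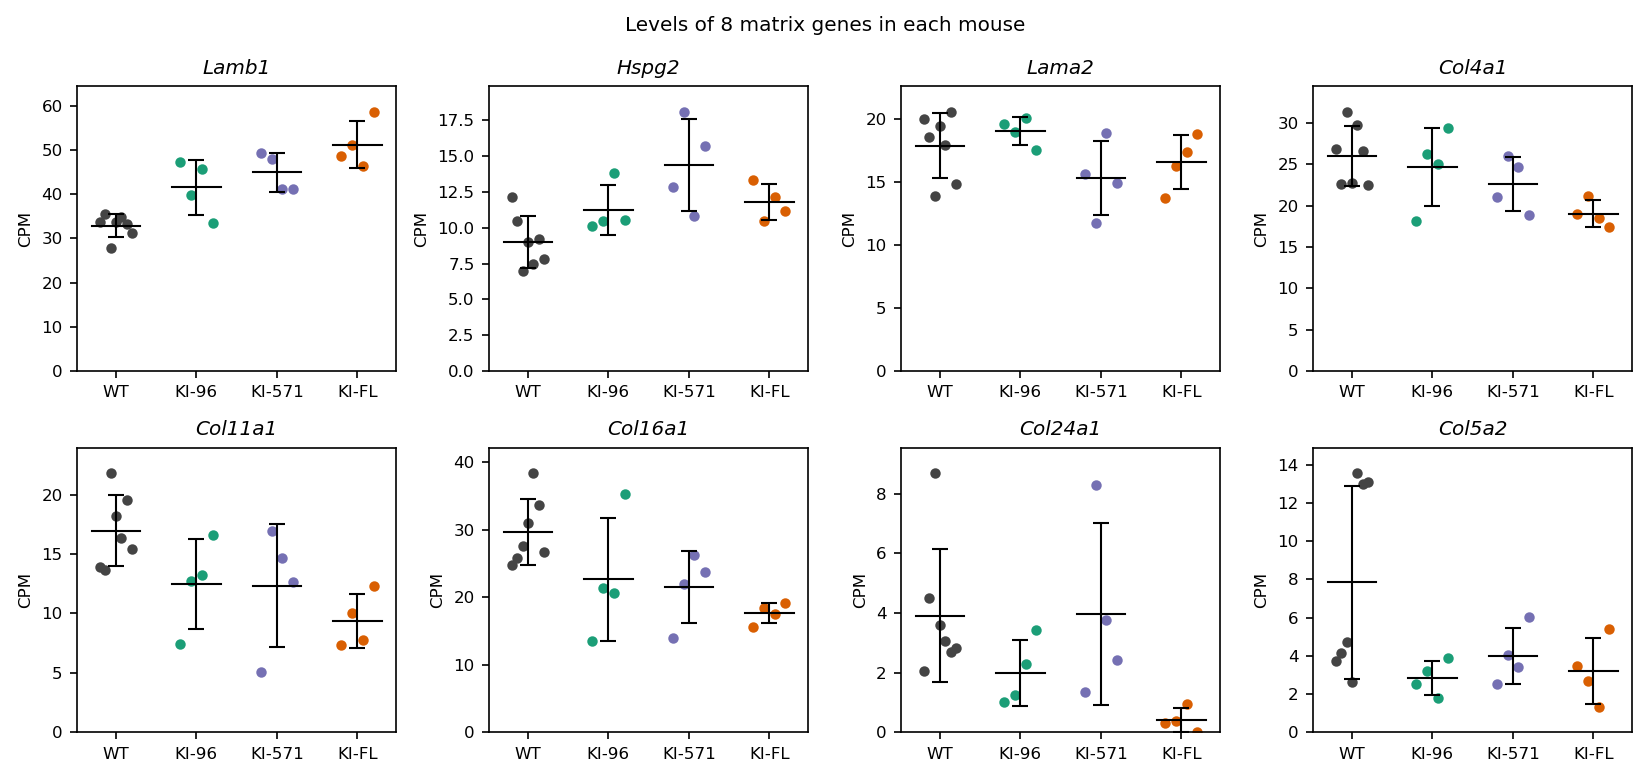
Level in CPM (vertical axes, each from 0) of 8 genes in each of the 19 mice, by genotype, with points for mice and a line and bars for the mean and SD of 7 WT or 4 KI mice. Lamb1 climbs from a WT mean of 32.9 CPM to 51.2 in KI-FL without overlap, Col4a1, Col11a1, Col16a1 and Col24a1 are lowest on average in KI-FL, and WT replicates 5 to 7 stand alone at 13.0 to 13.5 CPM for Col5a2.

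KI-FL was the genotype with the most matrix genes past the test, 2 of the 60, against 0.194% of all 18521 genes. These were Lamb1, which rose, and Col24a1, which fell. At an unadjusted p under 0.05, 3 of the 60 were higher in KI-FL and 15 lower, beside 7.89% and 8.84% of all genes, so that the excess over the background was among the lower genes. DESeq2, run as an alternative, called 5 of the 60: Lamb1 higher, and Col24a1, Col11a1, Col16a1 and Col4a1 lower. The share of all genes that DESeq2 called is not given here, so its counts here and below have no background beside them.

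Col24a1 (ENSMUSG00000028197.4, chr3:145292472-145552011, plus strand) encodes a minor fibrillar collagen chain of bone and of cortical neurons. The KI-FL mice had 0.332, 0.396, 0.960 and 0 CPM, which are 5, 5, 19 and 0 counts. The WT mice had 2.06 CPM at the lowest, 3.07 at the median and 8.68 at the highest, the KI-571 mice 1.34, 8.27, 3.78 and 2.42, and the KI-96 mice 1.01, 1.24, 2.28 and 3.43. Every KI-FL mouse lay below every other mouse. Its log2 fold change in KI-FL was -3.13 (SE 0.65, 8.75-fold lower, adjusted p = 0.0462). It was also lower in KI-FL than in KI-571, with KI-571 3.14 above (SE 0.69, adjusted p = 0.0994), and than in KI-96, with KI-96 2.18 above (SE 0.69, adjusted p = 0.410), but neither of these passed. The highest values, in WT replicate 3 and KI-571 replicate 2, were those of the mice high in cortical neuron markers, and without these mice the KI-FL value was -2.82 (adjusted p = 0.0473). Without KI-FL replicate 4 it was -2.72 and no longer passed (adjusted p = 0.106), and the call was lost in the same way without KI-FL replicate 1, 2 or 3, WT replicate 1, 2, 4, 5, 6 or 7, KI-96 replicate 1 or 2, or KI-571 replicate 2 or 3, with log2 fold changes from -4.02 to -2.72 over all mice left out in turn. It was also lost against WT replicates 1 to 4 (adjusted p = 0.399), against WT replicates 5 to 7 (0.119), with Xist (0.0822) and without the mice high in choroid plexus markers (0.0757).

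The fibrillar class as a whole lay low in KI-FL. Of its 11 genes, 1 had a log2 fold change above 0, beside 46.1% of all genes, and 6 were lower at an unadjusted p under 0.05, none being higher, with a median of -0.86, while the median over all genes was -0.028. Col11a1, a nucleator of collagen II fibres, had 7.37, 10.1, 7.78 and 12.3 CPM in KI-FL against a WT range of 13.7 to 21.8 (log2 fold change -0.86, SE 0.26, adjusted p = 0.1196). Col27a1, a cartilage collagen, had 7.97, 9.98, 9.70 and 7.18 CPM in KI-FL against 11.4 to 16.3 in WT (-0.67, SE 0.21, adjusted p = 0.140). Neither gene overlapped WT. Col11a2, the highest fibrillar gene, had 40.1 to 55.4 CPM in KI-FL against 48.6 to 72.6 in WT (-0.30, SE 0.14, adjusted p = 0.267). Col2a1, the main collagen of cartilage, had 0.465, 0.554, 2.27 and 0 CPM in KI-FL and 0.826 to 5.39 in WT (-1.47, SE 0.61, adjusted p = 0.234). Its KI-96 and KI-571 levels, 2.76 to 7.85 and 3.65 to 4.94 CPM, were all above those of KI-FL, and the log2 differences were 2.61 (SE 0.67, adjusted p = 0.289) and 2.23 (SE 0.67, adjusted p = 0.322).

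The collagens of ordinary connective tissue did not share that pattern evenly. Col1a2 had 7.63, 5.23, 5.05 and 8.68 CPM in KI-FL against 3.25 to 5.88 in WT and was the 1 fibrillar gene with a log2 fold change above 0 (0.47). Col1a1 had 4.58, 2.45, 4.65 and 0 CPM in KI-FL against 3.09 to 4.42 in WT (-0.43, SE 0.48), and Col3a1 had 0.332, 1.82, 1.16 and 0 against 0.708 to 1.61 (-0.23, SE 0.55). Both values lean on KI-FL replicate 4, in which 5 of the 11 fibrillar genes had no count and 8 of 10 markers of meningeal and perivascular fibroblasts were also at 0. The summed level of those markers was 22.8, 13.9, 11.5 and 8.29 CPM in the KI-FL mice and 13.3 to 22.0 in WT, and its part in the fibrillar values was not tested. Without replicate 4, the fibrillar median in KI-FL was -0.59, with 9 of 11 genes below 0 and 5 lower at an unadjusted p under 0.05. The shares of all genes in that fit are not given here, so these counts have no background beside them.

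Some of the other collagens were low in KI-FL too. Col16a1, a fibril-associated collagen, had 15.6, 18.4, 17.6 and 19.2 CPM in KI-FL and 24.8 to 38.3 in WT, without overlap (-0.75, SE 0.20, adjusted p = 0.0950). Col23a1, a transmembrane collagen, had 3.66 to 4.35 CPM against 4.95 to 8.54, also without overlap (-0.75, SE 0.25, adjusted p = 0.154). Col6a1 had 69.6, 103, 122 and 93.7 CPM in KI-FL and 88.5 to 188 in WT (-0.65, SE 0.22, adjusted p = 0.161). Col6a2, which assembles with it, differed little, with 28.5 ± 6.04 CPM in KI-FL (SD, n = 4) and 28.0 ± 2.60 in WT (SD, n = 7). Over the 24 other collagens the median was -0.38, and 5 were lower and 1 higher at an unadjusted p under 0.05.

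The 23 basement membrane genes divided evenly in KI-FL, with 12 above 0 and a median of 0.038. Col4a1, one of the main collagen IV chains of vessel walls, had 18.99, 21.2, 18.5 and 17.4 CPM in KI-FL, all below the WT range of 22.5 to 31.3 (-0.45, SE 0.13, 1.37-fold lower, adjusted p = 0.119). Col4a2, its partner in the collagen IV trimer, had 30.3 to 38.9 CPM against 37.0 to 53.6 in WT (-0.28, SE 0.16, adjusted p = 0.379). Col4a5, a chain of other collagen IV trimers, had 2.06 to 3.26 CPM against 3.38 to 4.85 and did not overlap WT either (-0.62, SE 0.30, adjusted p = 0.294). Hspg2, perlecan, lay on the other side, with 10.5 to 13.3 CPM in KI-FL and 6.96 to 12.2 in WT (0.39, SE 0.17, adjusted p = 0.248). Agrn (-0.16, SE 0.084), Nid1 (-0.16, SE 0.20) and Col15a1 (-0.55, SE 0.32) did not pass. In all, 7 of the 60 genes lay wholly below WT in KI-FL (Col11a1, Col16a1, Col23a1, Col24a1, Col27a1, Col4a1 and Col4a5), beside 2.38% of all genes, and Lamb1 alone lay wholly above, beside 2.9%.

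Basement membrane and fibrillar genes were set against each other by taking, mouse by mouse, the average log2 CPM of the 23 genes less that of the 11. In WT this difference was 0.085 at the lowest, 0.23 at the median and 0.87 at the highest. It was 0.98, 0.23, 0.82 and -0.053 in KI-96, 1.07, 0.41, 0.28 and 0.61 in KI-571, and 1.60, 0.67, 0.74 and 1.94 in KI-FL. KI-FL replicates 1 and 4 stood above every other mouse, and KI-FL replicates 2 and 3 fell inside the WT range. Replicate 1 was the KI-FL mouse high in choroid plexus markers. Replicate 4 had no count for 5 of the 11 fibrillar and 4 of the 23 basement membrane genes. The part of these traits in the score was not tested. The group mean was 0.18 above WT in KI-96 (pooled SD 0.36), 0.28 in KI-571 (0.30) and 0.92 in KI-FL (0.43). With any 1 mouse left out, the KI-FL value ran from 0.69 to 1.11, and over the genes with at least 10 counts in every mouse it was 0.55. No test was made of this score, since its genes were chosen with earlier results known.

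**Figure D3:**
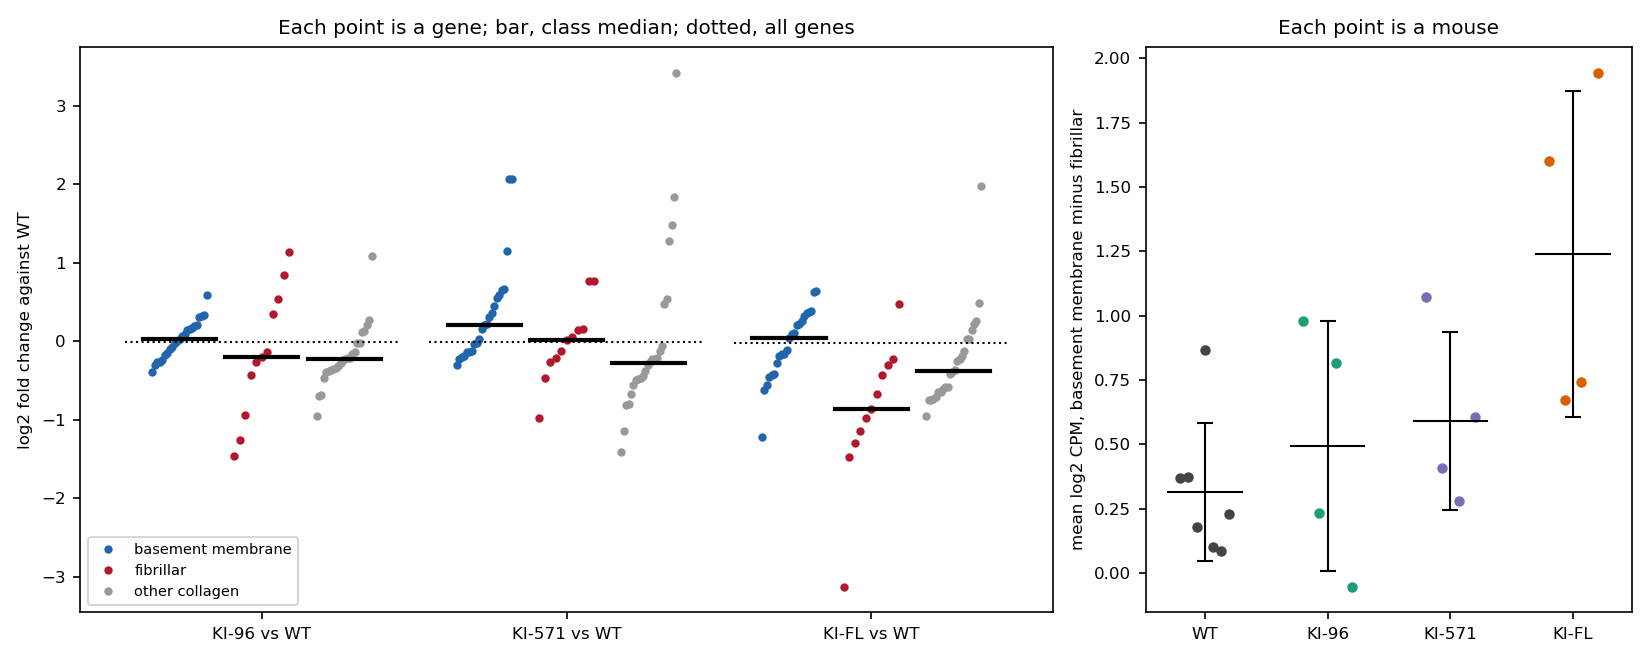
Left, log2 fold change against WT (vertical axis) of each basement membrane, fibrillar and other collagen gene in the 3 KI genotypes, with a bar at the class median and a dotted line at the median of all genes tested. Right, mean log2 CPM of basement membrane genes minus that of fibrillar genes in each mouse, with mean and SD, where the KI-FL mice run from 0.67 to 1.94 and the WT mice from 0.085 to 0.87.

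In KI-571, no matrix gene passed edgeR's test, beside 0.0324% of all genes, while DESeq2 called Lamb1 and Hspg2, both higher. At an unadjusted p under 0.05, 13 of the 60 genes were higher and 6 lower, beside 3.89% and 3.83% of all genes. Hspg2 had 12.8, 18.1, 10.8 and 15.7 CPM in KI-571 against 6.96 to 12.2 in WT, so that replicate 3 alone overlapped (log2 fold change 0.67, SE 0.16, adjusted p = 0.133). Lamb1 was described above, and it was the 1 gene of the 60 wholly above WT, beside 0.88% of all genes, while none lay wholly below, beside 0.67%. Of the 23 basement membrane genes, 14 were above 0, beside 48.3% of all genes, with a median of 0.21, and 7 were higher at an unadjusted p under 0.05: Lamb1, Hspg2, Nid2, Col4a4, Lama5, Col4a3 and Lamb2. The 11 fibrillar genes had a median of 0.015, with Col1a2 higher (3.94 to 11.6 CPM, 0.76, SE 0.23, adjusted p = 0.269) and Col5a2 lower.

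Several of the higher genes of KI-571 followed the choroid plexus markers. Ttr, the transthyretin gene that marks the choroid plexus, was at 4813 and 4948 CPM in KI-571 replicates 2 and 4 and 2783 in KI-FL replicate 1, and at most 343 elsewhere. In these 3 mice, 8 of the 60 genes (13.3%) were higher than in every one of the other 16, beside 243 of all 18521 genes (1.31%): Col4a3, Col4a4, Nid2, Col18a1, Lama5, Col8a1, Col8a2 and Col9a3. Col8a1, a short-chain collagen of endothelia and of the eye, had 20.2 and 29.8 CPM in the 2 KI-571 mice and 15.9 in the KI-FL mouse, and at most 2.38 in the others. Col9a3, a fibril-associated chain, had 82.4, 101 and 53.0 CPM against 8.94 to 26.3. Col4a3, a chain of the collagen IV of the kidney filter, had 3.21, 5.37 and 2.46 CPM against 0 to 0.759, and Col4a4, which lies 71 bases away and assembles with it, had 5.42, 7.68 and 3.52 against 0 to 1.59. Nid2 (nidogen 2) had 9.22, 13.7 and 11.02 CPM against 2.66 to 5.10, and Lama5, the laminin alpha5 chain, had 27.0, 26.0 and 21.4 against 10.3 to 17.4.

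Since the 8 genes were picked for being high in these 3 mice, their KI-571 values without them had to be lower, and they are given as a description. Col8a1 went from 3.42 to 0.24, Col8a2 from 1.84 to 0.52, Col9a3 from 1.48 to -0.19, Col4a3 from 2.07 to -1.23, Col4a4 from 2.06 to 0.60, Nid2 from 1.15 to 0.28, Lama5 from 0.59 to 0.076 and Col18a1 (collagen XVIII, the source of endostatin) from 0.44 to -0.55. In the same fit the basement membrane median of KI-571 was -0.057 with 2 genes higher and 1 lower at an unadjusted p under 0.05, the fibrillar median was -0.49, and Hspg2 was at 0.38. The shares of all genes in this fit are not given here. Col8a1 in KI-FL went from 1.98 to -0.088. The KI-571 group then held 2 mice.

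**Figure D4:**
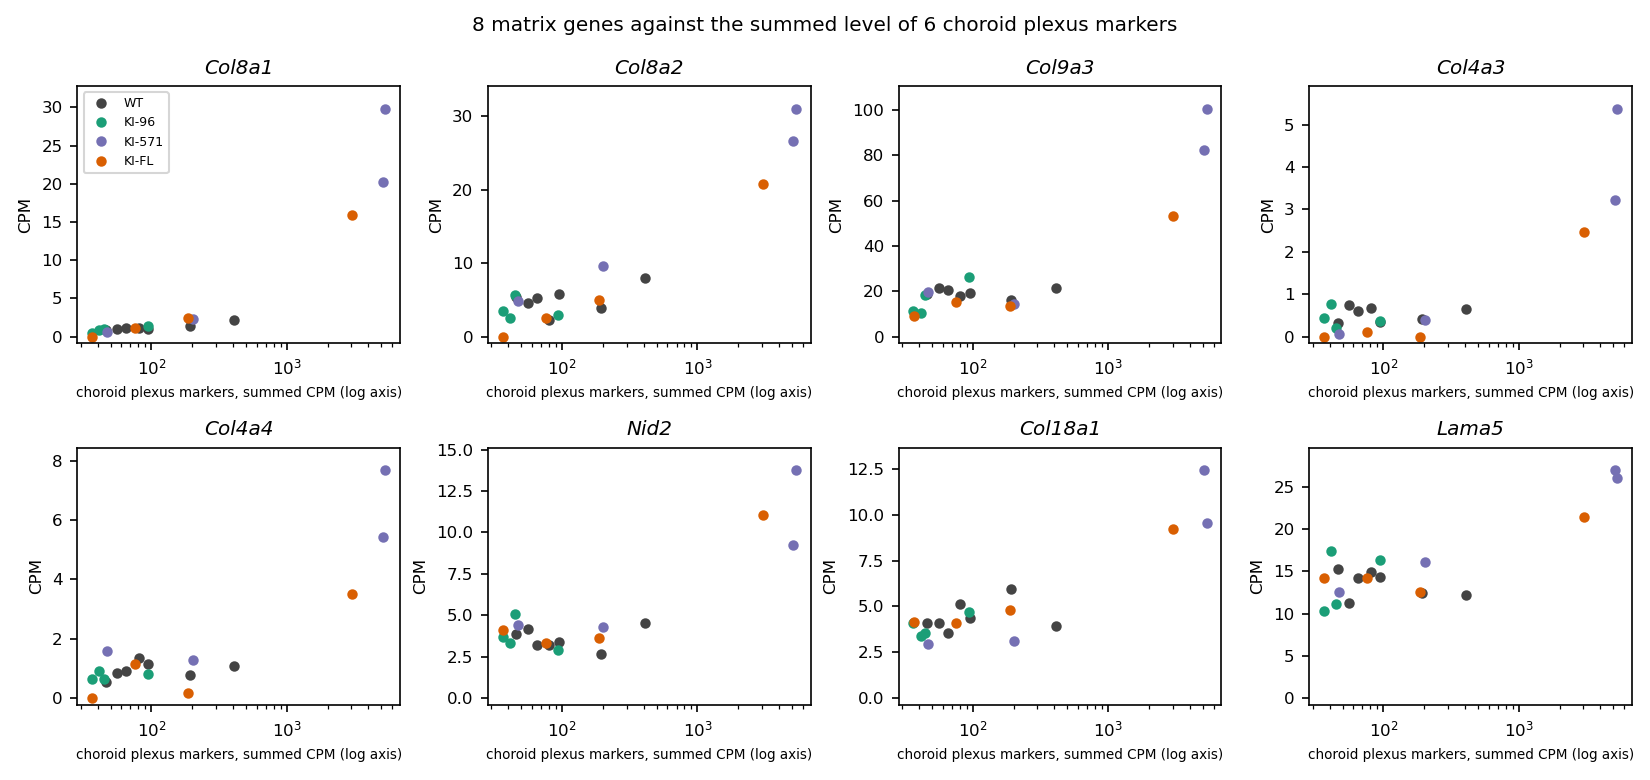
CPM of 8 genes (vertical axes, each from 0) against the summed CPM of 6 choroid plexus markers (log axis) in the 19 mice, coloured by genotype. The 2 KI-571 mice and the 1 KI-FL mouse with the highest marker levels lie above every other mouse in all 8 panels.

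In the KI-96 mice, no matrix gene passed edgeR's test or DESeq2, beside 0.027% of all genes by edgeR. At an unadjusted p under 0.05, 5 of the 60 were higher and 2 lower, beside 4.36% and 3.09% of all genes. The higher ones included Lamb1, Fn1 and Col1a2. Fn1, fibronectin, had 26.6, 25.9, 35.2 and 24.8 CPM in KI-96 and 11.3 to 28.6 in WT (0.59, SE 0.23, adjusted p = 0.632). Col1a2 had 6.71, 6.48, 6.72 and 7.86 CPM, all above the WT range of 3.25 to 5.88 (0.54, SE 0.23, adjusted p = 0.649), and it was the 1 gene wholly above WT, beside 0.599% of all genes. None lay wholly below, beside 0.643%. The class medians were 0.035 for basement membrane, -0.20 for fibrillar and -0.23 for other collagens. All KI-96 mice had high Xist, while among the WT mice replicate 1 alone did, so that genotype and sex cannot be cleanly told apart in any KI-96 value. In the fit with Xist as a covariate Col3a1 went from 0.84 to -0.16, and Agrn, Col15a1, Col8a1 and Nid1 changed direction too.

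Col5a2 and Col6a1 were lower in the KI mice as a group without passing. Col5a2, a chain of the collagen V that sets fibre width, was 1.25 below WT on the log2 scale over the 3 KI genotypes (SE 0.32, adjusted p = 0.108). Its WT level divided the WT mice: replicates 5 to 7 had 13.0 to 13.5 CPM and replicates 1 to 4 had 2.65 to 4.72, while the KI mice had 1.31 to 6.02. Against WT replicates 1 to 4 the value was -0.20, and against replicates 5 to 7 it was -1.99 (adjusted p = 0.0026), so the size of this difference was set by which WT mice were used. Replicates 5 to 7 were also the more deeply sequenced WT mice, and whether they were handled apart is not given in the labels. Col6a1 was 0.61 below WT over the KI genotypes (SE 0.16, adjusted p = 0.116), with 66.5 to 120 CPM in KI-96, 57.4 to 137 in KI-571, 69.6 to 122 in KI-FL and 88.5 to 188 in WT. Over the 3 KI genotypes together, Lamb1 was the 1 gene of the 60 that passed, beside 0.054% of all genes, and 15 had an unadjusted p under 0.05, beside 12.9%. DESeq2 called 6: Lamb1 and Hspg2 higher, and Col16a1, Col24a1, Col5a2 and Col6a1 lower. In the test of any difference among the 4 genotypes, Lamb1 again was the 1 gene called, beside 0.14%.

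Col5a1, the other main chain of collagen V, followed the cortical neuron markers. It had 24.0 CPM in WT replicate 3 and 20.5 in KI-571 replicate 2, and the 7 WT mice had a median of 4.64. Its KI-571 value was 0.052 with all mice and -0.47 without these 2.

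Between the KI genotypes, none of the 60 genes passed edgeR's test in any of the 3 comparisons, beside 0.0864% of all genes for KI-571 against KI-FL, 0% for KI-96 against KI-FL and 0.0054% for KI-96 against KI-571. DESeq2 called 1, Col24a1, higher in KI-571 than in KI-FL. At an unadjusted p under 0.05 there were 11, 13 and 11 genes in these comparisons, beside 8.9%, 8.9% and 5.51% of all genes. All 11 fibrillar genes had higher fitted values in KI-571 than in KI-FL (median 0.45, beside 52.8% of all genes), as did 18 of the 23 basement membrane genes (median 0.30). Markers of some other cells lay higher in KI-571 than in KI-FL too: 9 of 10 of meningeal and perivascular fibroblasts (median 0.82), 6 of 6 of choroid plexus (1.51), 6 of 6 of cortical neurons (1.25) and 5 of 5 of red cells (1.99), of which 4 passed the test. By mean summed level, mural (117 and 119 CPM in KI-571 and KI-FL) and microglia markers (246 and 258) lay lower. Striatal projection neuron markers were near equal (6846 and 6837), and those of endothelial cells, astrocytes and oligodendrocytes lay higher. KI-FL replicate 4 had no count for 8 fibroblast, 3 choroid plexus and 3 cortical neuron markers, 5 fibrillar and 4 basement membrane genes. The summed level of the red cell markers was 163 to 483 CPM in KI-571 and 43.5 to 103 in KI-FL, without overlap, and that of the fibroblast markers was 17.6 to 33.8 and 8.29 to 22.8. The part of these cells in the fibrillar and basement membrane values was not tested. KI-96 against KI-571 was led by genes of the choroid plexus pattern, Col8a1 (-3.79, SE 1.04, adjusted p = 0.415) and Col9a3 (-1.70, SE 0.52, adjusted p = 0.528).

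Col4a1 and Col4a2, which share a start region, moved together over the 19 mice with a Pearson r of 0.73 in log2 CPM (Spearman rho 0.73, permutation p = 0.00042 and 0.00063, and 0.00063 and 0.0019 after adjustment over the 3 pairs examined). Without WT replicates 3 and 5, which were farthest out in Col4a1, r was 0.62, and within genotypes it was 0.77. Col4a2 was nevertheless 67th among all genes in its likeness to Col4a1. Among the genes most like Col4a1 by Pearson r over the 19 mice were Snapc4 (0.88) and Telo2 (0.87). For Col4a5 and Col4a6, r was 0.40 (permutation p = 0.1003, unchanged by adjustment) but rho was 0.67 (permutation p = 0.0022, adjusted p = 0.0033). Without KI-571 replicate 4 and KI-96 replicate 1, which were farthest out in Col4a5, r was 0.50, and within genotypes it was 0.12. For Col4a3 and Col4a4 no r is given, because the mice high in choroid plexus markers lay above every other mouse in both genes.

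The receptors, the maturation enzymes and the proteases of the matrix held no called gene in any KI genotype against WT. Of 21 receptors tested, 2, 5 and 4 had an unadjusted p under 0.05 in KI-96, in KI-571 and in KI-FL, which is 9.52%, 23.8% and 19.05% of them, beside 7.45%, 7.72% and 16.7% of all genes. The KI-96 and KI-FL shares were thus near those of all genes. Among the receptors, Bcam, which binds the laminin alpha5 chain, was 0.66 above WT in KI-571 (SE 0.18, adjusted p = 0.209), Ddr2, a collagen receptor, was 0.90 above (SE 0.29, adjusted p = 0.333), and in KI-FL Itga6, a laminin-binding integrin chain, was at -0.48 (SE 0.16, adjusted p = 0.148) and Itgb8 at -0.43 (SE 0.13, adjusted p = 0.131). Of 26 maturation and cross-linking genes, 2, 4 and 8 had an unadjusted p under 0.05 (7.69%, 15.4% and 30.8%), so that the KI-96 share was near that of all genes. Pcolce, which speeds the trimming of procollagens, was 2.07 above WT in KI-571 (SE 0.43, adjusted p = 0.0959), Serpinh1, the collagen chaperone, 0.55 above (SE 0.21, adjusted p = 0.488), and Adamts2, which trims fibrillar procollagens, was at -0.80 in KI-FL (SE 0.23, adjusted p = 0.116). The part of the KI-571 mice high in choroid plexus markers in the values of Bcam, Ddr2, Pcolce and Serpinh1 was not tested. Of 11 breakdown genes, 1, 0 and 1 had an unadjusted p under 0.05, beside the same 7.45%, 7.72% and 16.7% of all genes. The share in KI-96 (9.09%) was near that of all genes, and the share in KI-FL (9.09%) was below it. The KI-96 gene was Mmp15, a membrane-bound matrix protease, at 0.38 in KI-96 (SE 0.13, adjusted p = 0.564).

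Markers of vessel cells were summed in each mouse. The summed level of 9 endothelial markers was 162 ± 42.9 CPM in WT (SD, n = 7), 186 ± 24.98 in KI-96, 184 ± 22.7 in KI-571 and 172 ± 19.8 in KI-FL (SD, n = 4 each). For the 7 of 9 mural cell markers that were tested it was 107 ± 18.8 CPM in WT and 113, 117 and 119 in the 3 KI genotypes. None of these 9 endothelial and 7 mural markers passed the test against WT, and the part of vessel cells in the Lamb1 and Col4a1 values was not tested.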

How the data were processed

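Striatal RNA of 19 mice was sequenced, and the authors deposited raw counts per gene, unnormalized. Per the labels and the study's methods, reads were aligned with STAR to GRCm38 and counted with HTSeq, whose versions, annotation and strand setting are not given in the sources used here. The 5 summary lines of HTSeq were left out of the library sizes (reads on no gene made up 11.1 to 24.2% and ambiguous reads 4.54 to 5.61%), and 4 columns that belong to none of the mice were not used. Genotype and replicate number were taken from the labels. The labels name neither sex nor a sacrifice batch, so that the batch the study adjusted for was not used here. The study also left out a WT sample as a possible outlier. The labels do not say which, and all 7 WT mice were kept. The study's methods give 4 to 5 mice for each genotype, fewer than the 7 WT mice labelled.

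One model for all 19 mice was fitted to the counts in edgeR 4.0.16 under R 4.3.3 (TMM, filterByExpr with minimum count 10 and minimum total 15, a term for each genotype, quasi-likelihood F-test). P-values were adjusted by Benjamini-Hochberg over the 18521 genes tested, and a gene was called at an adjusted p under 0.05. Every adjusted p in the text is from this test unless DESeq2 is named. SE is the size of the log2 fold change divided by the root of F, and log2 CPM used a prior count of 2. Gene names matched 54079 of 54232 identifiers, and exon lengths came from GENCODE M21. On simulated counts for KI-FL against WT with 200 of 18521 genes changed, 84% of 4-fold and 58% of 2-fold changes were called, and 3.40% of calls were false.

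The 60 genes, their classes and the pathway and marker lists were chosen with earlier results of these data known. Genes were named in the text by rule: those called in any comparison, the 3 with the smallest p in each comparison with WT, the 2 in each between KI genotypes, a core list of main chains, and the 5 of highest RPKM. Col2a1 aside, which the rule names, the genes Col4a3 to Col4a6, Col6a2, Col8a2, Col23a1 and those named from the pathway lists were named after their values were seen. Alternatives were DESeq2 1.42.0, its size factors in edgeR, other filters, a block for the replicate number, Xist as a covariate, the compared groups alone, WT replicates 1 to 4 alone, and each mouse left out. Leaving out the mice high in choroid plexus or cortical neuron markers, and WT replicates 5 to 7 alone, were added after seeing the data. Nothing in the labels ties same-numbered mice, and p-values measure the spread between these mice.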

Additional observations from a re-analysis of the deposited data

Results flagged for a closer look

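Mice far from the others of their genotype, by the gap to the nearest relative to the range, were found in 8 of 132 groups of values, and chance flags about 1 in 20 groups, or 7 of these. In log2 CPM, KI-FL replicate 4 had -3.25 for Col1a1, Col5a3 and Lama4, in each of which it had no count, while the other KI-FL mice had 1.36 to 2.25 for Col1a1, 1.32 to 2.18 for Col5a3 and 1.67 to 2.10 for Lama4. KI-571 replicate 1 had 0.49 for Col5a3 against 2.43 to 2.50 in the other KI-571 mice. KI-96 replicate 4 had 2.84 for Col15a1 against 1.55 to 1.68, and KI-96 replicate 3 had 3.80 for Hspg2 against 3.35 to 3.41. WT replicate 1 had 6.47 for Col6a1 against 7.14 to 7.55 in the rest of its group. For the basement membrane minus fibrillar difference, WT replicate 4 stood at 0.87 while the remaining 6 WT mice spanned 0.085 to 0.37.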

How the results depend on the processing

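The alternatives gave 2859 log2 fold changes of named genes, of which 2769 kept their direction and 90 did not, spread over 28 of 96 pairs of gene and comparison with WT. No direction changed for Lamb1 in 30 fits against WT, and the cause of the changes below was not tested. Against WT, the called matrix genes in KI-FL (2 as reported) numbered 5 with DESeq2, 5 with only the groups compared, 1 with at least 10 counts in every mouse, 1 against WT replicates 5 to 7, and 0 with Xist, against WT replicates 1 to 4, without the mice high in choroid plexus markers, and in the replicate block. In KI-571 (0 as reported) they numbered 2 with DESeq2, 2 with only the groups compared and 1 with no filter on low counts. In KI-96 (0) there was 1 against WT replicates 5 to 7, Col5a2. Between KI-571 and KI-FL (0) there was 1 with DESeq2 and 1 with no filter. Over all KI mice (1) there were 6 with DESeq2, 4 with no filter, and 0 with the block, with Xist, against WT replicates 1 to 4 and without the mice high in cortical neuron markers. For any difference (1) there were 6 with DESeq2, 4 with no filter, and 0 with the block, with Xist, against WT replicates 1 to 4 and without the mice high in choroid plexus or in cortical neuron markers. Leaving out 1 mouse gave 0 to 2 called genes for KI-571, KI-FL, all KI and any difference, and 0 for the other comparisons. The shares of all genes called under these alternatives are not given here. The basement membrane minus fibrillar difference from WT ranged from 0.017 to 0.36 in KI-96, 0.12 to 0.38 in KI-571 and 0.69 to 1.11 in KI-FL. Over 24 pairs of same-numbered mice, the r of their deviations ran from -0.13 to 0.29 (median -0.0048, 5 above 0.1). These values cannot show whether same-numbered mice shared a batch, which the labels do not give. In the fit with this replicate block, the adjusted p of Lamb1 was 0.320 in KI-FL and 0.595 over all KI mice, and that of Col24a1 in KI-FL was 0.320. Numbers 5 to 7 occur in WT alone, so that the block in effect set the KI mice against WT replicates 1 to 4.

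The log2 fold changes against WT that changed direction follow. With the block they were -0.015 for Agrn and -0.092 for Lama4 in KI-96, -0.26 for Col24a1, -0.49 for Col5a1 and 0.064 for Col5a3 in KI-571, and -0.096 for Fn1 and -0.071 for Lamb2 in KI-FL. With Xist they were, in KI-96, -0.014 for Agrn, 0.21 for Col15a1, -0.16 for Col3a1, 0.18 for Col8a1 and -0.018 for Nid1. With no filter Agrn was -0.0073 in KI-96. Against WT replicates 1 to 4 they were -0.0096 for Agrn, 0.076 for Col5a3 and -0.035 for Lama4 in KI-96, -0.26 for Col24a1, -0.33 for Col5a1, 0.072 for Col5a2 and 0.22 for Col5a3 in KI-571, and -0.099 for Fn1 and -0.061 for Lamb2 in KI-FL. Against WT replicates 5 to 7 they were 0.033 for Col15a1 and -0.076 for Lama5 in KI-96, and 0.081 for Lama1, 0.15 for Lama4 and 0.081 for Nid1 in KI-571. Without the 3 mice high in choroid plexus markers they were -0.00062 for Agrn in KI-96, -0.55 for Col18a1, -0.61 for Col24a1, -0.12 for Col3a1, -1.51 for Col5a1 and -0.19 for Col9a3 in KI-571, and -0.042 for Col18a1, 0.023 for Col3a1, -0.088 for Col8a1, -0.64 for Col9a3 and -0.072 for Lamb2 in KI-FL. Without the 2 mice high in cortical neuron markers they were -0.00087 for Agrn and 0.016 for Col15a1 in KI-96, -0.31 for Col24a1 and -0.47 for Col5a1 in KI-571, and -0.0042 for Lamb2 in KI-FL. The last 3 of these settings were chosen after seeing the data.

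With each mouse left out in turn, directions changed in KI-96 for Agrn (-0.047 to 0.078), Col15a1 (-0.46 to 0.11), Col27a1 (-0.34 to 0.087), Col4a1 (-0.17 to 0.045), Col5a3 (-0.76 to 0.049), Lama4 (-0.024 to 0.25), Lama5 (-0.096 to 0.15) and Nid2 (-0.12 to 0.17). They changed in KI-571 for Col24a1 (-0.64 to 0.33), Col5a1 (-1.15 to 0.72), Col5a3 (-0.26 to 0.18) and Nid1 (-0.12 to 0.060). They changed in KI-FL for Col18a1 (-0.041 to 0.44), Col3a1 (-0.89 to 0.18), Col8a1 (-0.096 to 2.40), Col9a3 (-0.64 to 0.49), Lama4 (-0.71 to 0.00013) and Lamb2 (-0.072 to 0.17). Comparisons over all KI mice and of any difference have no version with only the groups compared. Col8a1 had 18 to 40 counts in the WT mice, so that depth limits the precision of its fold changes.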
